A study of Mus musculus with 2 samples.

Results

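The genes described here encode 10 growth factor receptor tyrosine kinases, Fgfr1, Fgfr2, Fgfr3, Egfr, Erbb2, Pdgfra, Pdgfrb, Igf1r, Met and Ntrk2, out of 22367 protein-coding and 37273 annotated genes. They were chosen by symbol in the GENCODE M1 annotation of NCBI37/mm9, and R-loop peaks were assigned to a gene when they overlapped it by at least 1 bp or lay within 2 kb of it. Peaks came from DRIP-seq, in which the S9.6 antibody recovers RNA:DNA hybrids from restriction-digested DNA, in primary neural stem/progenitor cells (NSPCs) from the frontal brains of C57BL/6 mice at postnatal day 7. Per the study's methods, the cells had been treated with 0.5 μM aphidicolin, an inhibitor of replicative DNA polymerases, for 48 h to cause mild replication stress, and the DNA was treated with RNase A before immunoprecipitation. Repeat DRIP reactions were pooled within each biological replicate. The data are 1 list of 22132 peaks, given as positions without signal or score. An input library was also made and is not analysed here. There is therefore no error between replicates, the depth behind a peak is unknown, no untreated cells are compared, and no difference was tested. A peak also does not give the level at which a gene was transcribed, and a gene without a peak in the list cannot be called free of R-loops.

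Receptor tyrosine kinases span the plasma membrane, bind a growth factor on the outside of the cell and carry a kinase domain on the inside. Ligand binding brings receptors together, the kinases phosphorylate each other, and adaptor proteins recruited to the phosphorylated tails start the Ras-MAPK, PI3K-Akt and PLC-gamma pathways. In neural stem and progenitor cells, FGF2 and EGF are the standard mitogens of culture, PDGFRA marks oligodendrocyte progenitors, IGF1R conveys growth and survival signals, and Ntrk2 encodes TrkB, the receptor of BDNF. An R-loop is an RNA:DNA hybrid with a displaced DNA strand, and it forms most readily where the transcript, and so the non-template strand, is rich in G.

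Peaks were found at 7 of the 10 receptor genes and were spread very unevenly among them. Igf1r had 13 peaks, Ntrk2 11 and Fgfr1 9, so that 33 of 41 peaks (80.5%) fell in 3 genes. These counts leave out Fgfr2-007, a transcript of 3.009 Mb described with Fgfr2. Egfr had 4 peaks, Erbb2 had 2, and Fgfr2 and Pdgfrb had 1 each. Fgfr3, Pdgfra and Met had none. Per 100 kb of gene, the order changed, with Fgfr1 highest at 14.5 peaks, followed by Erbb2 at 7.92, Igf1r at 4.75, Ntrk2 at 3.36, Pdgfrb at 2.51, Egfr at 2.41 and Fgfr2 at 0.959. Members of 1 family differed: among the FGF receptors the count ran from 0 to 9, and the 2 PDGF receptors had 0 and 1.

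**Figure D1:**
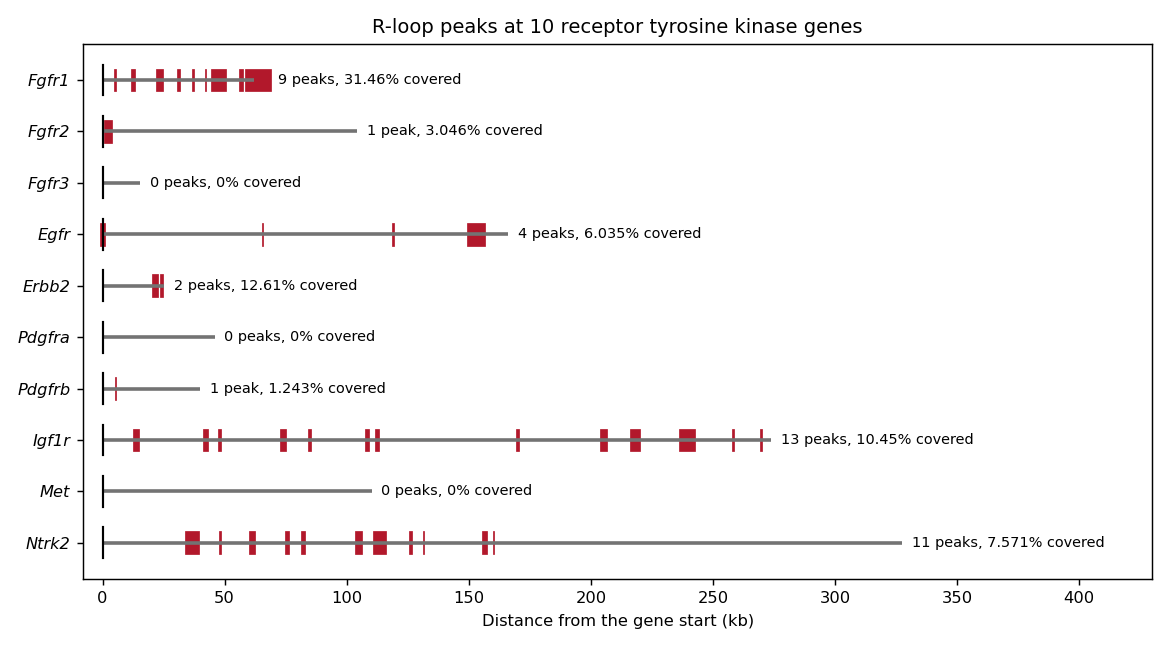
Peaks (red boxes) along each receptor gene (grey line), by distance in kb from the annotated gene start (black tick), with the number of peaks and the percent of gene bases they cover. The last peak of Fgfr1 runs past the gene end, the peaks of Ntrk2 all lie in the first 160.5 kb, and Fgfr3, Pdgfra and Met carry no box.

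Across all protein-coding genes, 43.1% had a peak within 2 kb, and the share rose with gene length. It was 32.4% of genes under 20 kb (the class of Fgfr3), 52.5% of genes of 20 to 50 kb (Erbb2, Pdgfra and Pdgfrb), 58.0% of genes of 50 to 100 kb (Fgfr1), 63.3% of genes of 100 to 200 kb (Fgfr2, Egfr and Met) and 67.5% of genes of 200 kb or longer (Igf1r and Ntrk2). The receptor genes are 15.3 to 327 kb long, and 7 of 10 is close to these shares. The number of peaks in single genes stood further from the background. Only 24 of 2440 genes of Fgfr1's length class (0.984%) had 9 or more peaks. In the longest class, 33 of 954 genes (3.46%) had as many peaks as Igf1r and 55 (5.77%) as many as Ntrk2. These counts include Fgfr2 by its annotated limits, with 44 peaks through Fgfr2-007. The 4 peaks of Egfr were reached by 19.9% of genes of its class and the 2 peaks of Erbb2 by 28.7%. Median counts were 1 peak in the class of every receptor other than Fgfr3, where the median was 0.

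Starts of transcription were in a peak at 3 of the receptors. Taking for each gene a reference transcript, that with the longest coding sequence, the start lay inside a peak at Fgfr1, Fgfr2 and Egfr and outside any peak at the other 7 genes. Among all protein-coding genes, 17.2% had the start of some coding transcript inside a peak, and 14.9% had the annotated gene start there. By the annotated gene start, only 1 receptor, Egfr, had its start in a peak. The distance from the reference start to the nearest peak was 5171 bp at Pdgfrb, 12492 bp at Igf1r, 20401 bp at Erbb2, 32480 bp at Ntrk2, 45038 bp at Fgfr3, 107112 bp at Pdgfra and 108408 bp at Met. G and C made up 58.2 to 60.9% of the bases within 1 kb of the 3 starts in a peak, and 50.0 to 65.7% at the other 7. The highest value, 65.7%, belonged to Igf1r, whose start had no peak, and Fgfr3 had 63.0%. GC skew, which is (G - C)/(G + C) counted on the coding strand, was 0.293 in the first 1 kb of Pdgfra and 0.179 in that of Fgfr3, the highest values of the 10 and both without a peak. At the starts in peaks it was -0.038 for Fgfr1, 0.0498 for Fgfr2 and 0.0153 for Egfr. Over all protein-coding genes the median was 56.6% G and C with a skew of 0.065 for 3325 gene starts in peaks, and 50.0% with a skew of 0.035 for 19042 starts outside. These medians are at annotated gene starts, whereas the receptor values are at reference starts. The starts of Igf1r, Fgfr3, Ntrk2 and Erbb2 had more G and C than the median start in a peak, and those of Pdgfra, Fgfr3 and Met a higher skew, although no peak was listed at any of them.

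The stretches of 80 bases within 1 kb of each start in which G outnumbers C by the most set the starts with a peak beside those without one. Each is read on the coding strand, which is the plus strand of mm9 for these genes, with runs of 3 or more G in capitals. The stretch of Egfr lies inside the peak over its start. That of Fgfr1 lies in intron 1 beyond the end of its start peak, so only its start is in a peak. Those of Fgfr3, Pdgfra and Ntrk2 lie in intron 1 and those of Erbb2, Igf1r and Met upstream of the start, none of them in a peak. All printed stretches lie outside annotated exons of the gene. The stretch of Fgfr2 is not printed because it lies in an exon of another transcript, outside any coding sequence, and that of Pdgfrb is not shown.
Fgfr1, chr8:26630185-26630264: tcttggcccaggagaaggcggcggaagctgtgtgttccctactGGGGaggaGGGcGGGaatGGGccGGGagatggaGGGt
Egfr, chr11:16651847-16651926: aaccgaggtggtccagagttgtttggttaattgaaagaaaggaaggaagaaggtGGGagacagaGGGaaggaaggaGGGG
Fgfr3, chr5:34064787-34064866: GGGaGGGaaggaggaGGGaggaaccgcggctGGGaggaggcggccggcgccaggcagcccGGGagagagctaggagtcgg
Erbb2, chr11:98272996-98273075: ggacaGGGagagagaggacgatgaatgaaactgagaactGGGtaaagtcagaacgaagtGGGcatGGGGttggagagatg
Pdgfra, chr5:75548998-75549077: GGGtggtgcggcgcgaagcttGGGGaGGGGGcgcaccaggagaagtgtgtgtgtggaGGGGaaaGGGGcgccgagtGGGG
Igf1r, chr7:75097177-75097256: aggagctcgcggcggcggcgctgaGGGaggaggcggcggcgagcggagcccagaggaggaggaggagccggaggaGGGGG
Met, chr6:17413646-17413725: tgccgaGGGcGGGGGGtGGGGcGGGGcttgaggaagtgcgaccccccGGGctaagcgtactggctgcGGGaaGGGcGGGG
Ntrk2, chr13:58909549-58909628: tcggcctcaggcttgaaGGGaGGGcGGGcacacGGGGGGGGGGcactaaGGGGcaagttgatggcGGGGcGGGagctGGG
At the starts in peaks the stretches held 39 G and 14 C for Fgfr1, 49 G and 19 C for Fgfr2 and 35 G and 5 C for Egfr. At the other 7 starts G ran from 34, at Erbb2 and Pdgfrb, to 47, at Igf1r. G exceeded C by 25 to 30 bases at the starts in peaks and by 25 to 35 at the others, so the values of both sets overlapped.

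**Figure D2:**
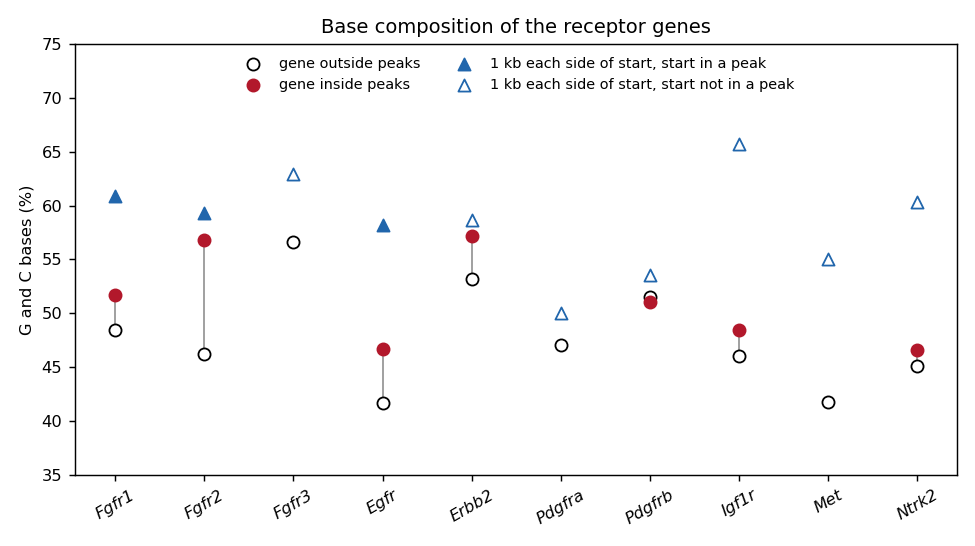
Percent of G and C bases at each receptor gene, for gene bases inside peaks (red circles), gene bases outside peaks (open circles) and the window of 1 kb to each side of the reference start (triangles, filled where the start lies in a peak). Igf1r has the highest triangle and it is open, and the red circle lies above the open one in 6 of 7 genes.

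Fgfr1, a main receptor for FGF2, was the most densely covered receptor, with 31.46% of its 62.06 kb in peaks. The gene lies on the plus strand at chr8:26624126-26686186, and 1.97% of genes of 50 to 100 kb were covered as much. The first peak (chr8:26628781-26629786, 1.006 kb) held the starts of Fgfr1-001, Fgfr1-002 and the non-coding Fgfr1-014. The annotated gene start, that of the short Fgfr1-012, lies 4.655 kb upstream of this peak. Of the 9 peaks, 4 lay within introns 1 and 2, where the widest was 2.993 kb. Toward the 3′ end a peak of 6.246 kb covered exons 5 to 7, one of 1.401 kb exons 11 to 13, and the widest of the gene, 10.36 kb (chr8:26682588-26692947), exons 14 to 18. Peaks touched 13 of 18 exons of Fgfr1-001 and held 66.7% of exon bases against 26.2% of intron bases, counting exons of any transcript. The coding part of exons 14 to 18, under the widest peak, belongs to the intracellular part of the receptor.

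The widest of these peaks ran 6.761 kb past the end of Fgfr1 and over the end of Letm2, which lies on the opposite strand, so that the ends of both genes fell in 1 peak with 2777 bp between the genes. Peaks 5 and 6 also overlap Gm16159, a non-coding RNA gene inside Fgfr1. The list carries no strand, and the RNA in these 3 peaks cannot be assigned to one gene or the other. The other 6 peaks alone covered 23.51% of Fgfr1. Fgfr1 was the only receptor whose gene end lay in a peak, against 10.9% of all protein-coding genes.

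Fgfr2 carried its only peak at the start and Fgfr3 carried none. Fgfr2, on the minus strand at chr7:137306026-137410322, had a single peak of 3.177 kb (chr7:137406646-137409822) that held the starts of 6 transcripts, 4 of them coding, and touched only exon 1 of the 18 exons of its reference transcript, Fgfr2-004. The annotation adds a transcript, Fgfr2-007, of 7 exons over 3.009 Mb, whose first exon overlaps Ctbp2 and which spans 32 other protein-coding genes. By the annotated limits 44 peaks would fall to Fgfr2 and 84 to the receptors, but 43 of the 44 come only through this transcript and 40 of those lie in other coding genes. Fgfr2 is therefore described by its other 28 transcripts, and no other peak lay within 250 kb of these. Fgfr3, at chr5:34064373-34079716, is the shortest of the 10 genes and had no peak. The nearest was 45.04 kb upstream and 3.929 kb wide. The surroundings of Fgfr3 were not empty, with 14 peaks within 250 kb.

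The ErbB genes Egfr and Erbb2 carried their widest peaks toward the 3′ end. Egfr, at chr11:16652206-16818161 on the plus strand, had a start peak of 2.072 kb (chr11:16651206-16653277) with the starts of 4 transcripts, and 6.035% of its 166 kb was covered. Its widest peak, 7.46 kb at chr11:16801403-16808862, lay 149.2 to 156.7 kb from the gene start over exons 21 to 23 of the 28 exons of Egfr-001. The shorter coding transcripts Egfr-002, Egfr-003 and Egfr-201 end 13.48, 17.04 and 17.09 kb before this peak, so among coding transcripts only Egfr-001, with the full kinase-coding part, passes through it. The non-coding Egfr-004 begins inside it. The remaining peaks were narrow. One of 0.568 kb in intron 1 also overlaps E230015J15Rik and cannot be told apart from it, and one of 0.915 kb covered exons 8 and 9.

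Erbb2, which encodes the receptor that binds no ligand by itself and partners the other ErbB receptors, had no peak in its first 20.4 kb. Both of its peaks lay in the last part of the gene (chr11:98273784-98299030): a peak of 2.118 kb over exons 17 to 23 and a peak of 1.065 kb over exons 26 and 27, the last 2 of 27 exons. They held 37.26% of exon bases and 6.199% of intron bases. Merging peaks closer than 1 kb joined them to 1.

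Igf1r, the receptor for the insulin-like growth factors, had the most peaks, and they were mostly intronic. Its 13 peaks ranged from 0.858 to 6.564 kb and covered 10.45% of the 273.8 kb at chr7:75097713-75371484, a share that 2.62% of genes of 200 kb or longer reached. The first peak (chr7:75110206-75112616) began 12.49 kb into the gene. Intron 1 (50.86 kb) held 3 peaks and intron 2 (160.6 kb) held 6. In all, 11 peaks touched no exon. The exceptions were a peak of 4.023 kb over exon 4 and the widest one, 6.564 kb at chr7:75333661-75340224, over exons 9 to 12. No transcript start or end of Igf1r lay in a peak, and no peak overlapped another gene.

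Ntrk2 (chr13:58907957-59235331) had all of its 11 peaks in the first 160.5 kb, and the remaining 166.9 kb (50.97% of the gene) had none. The gene makes full-length TrkB with a kinase domain and truncated TrkB without one. In the annotation 3 coding transcripts run to the far end of the gene, and 2 shorter ones, Ntrk2-201 and Ntrk2-203, stop early, the later of them 130.4 kb from the gene start. The reference Ntrk2-202 has 18 exons, and the 6 exons after the end of the shorter transcripts, exons 13 to 18, all lie beyond the last peak. Exon 13 begins 18.7 kb and exon 18 begins 161.1 kb after it. The shorter transcripts end in exons of their own, and both of these overlap peaks: peak 5 (chr13:58989335-58990841) covers 39.3% of the 1288 bp last exon of Ntrk2-201 with its end, and peak 8 (chr13:59033317-59034747) covers 27.2% of the 5008 bp last exon of Ntrk2-203. Beyond the end of Ntrk2-203 there were still 3 peaks, all in intron 12, which at 107.5 kb held 8 of the 11 peaks. The reference transcript had 1 exon touched, exon 5, by the first and widest peak (5.621 kb, 33.78 kb from the gene start).

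Few long genes had all of their peaks before the midpoint, as Ntrk2 did. Of 60 protein-coding genes of 200 kb or longer with at least 10 overlapping peaks, Ntrk2 was the only 1 (1.67%), and of 173 with at least 5 peaks 7 (4.05%) had this pattern. This comparison was chosen after the positions in Ntrk2 had been seen. Of the same 60 genes, 34 (56.7%) had a coding start in a peak, against 17.2% of all protein-coding genes. The other 26 (43.3%) had no coding start in a peak, as Igf1r and Ntrk2 had none.

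**Figure D3:**
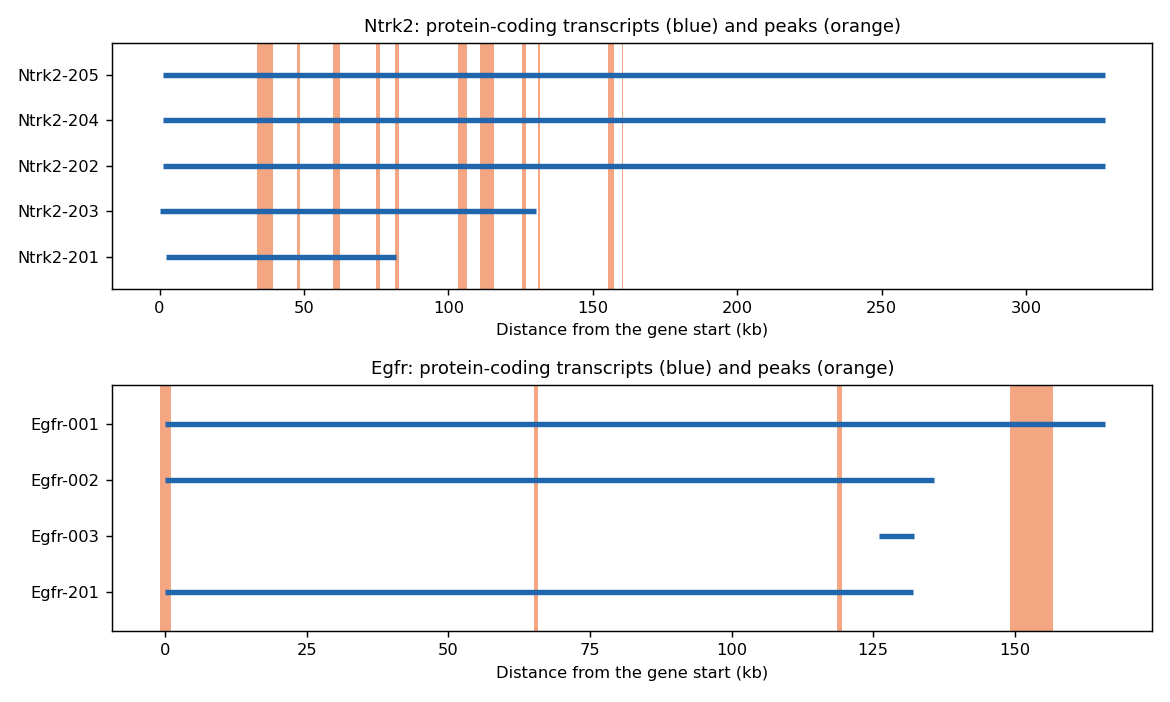
Protein-coding transcripts (blue lines, start to end) of Ntrk2 and Egfr with the peaks (orange bands), by distance from the gene start in kb. In Ntrk2 the bands stop at 160.5 kb while 3 transcripts run on, and in Egfr the widest band lies beyond the ends of all coding transcripts other than Egfr-001.

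Within these long genes, peaks held G-rich stretches inside introns, of which 3 are printed as examples, 80 bases each on the plus strand of mm9 with runs of 3 or more G in capitals. The stretch of Igf1r is from peak 4 in intron 2 (48 G and 3 C). That of Ntrk2 is from peak 1, in intron 4 (43 G and 1 C), where G alternates with T. That of Egfr is from the widest peak, in intron 20 (44 G and 5 C).
Igf1r, chr7:75172706-75172785: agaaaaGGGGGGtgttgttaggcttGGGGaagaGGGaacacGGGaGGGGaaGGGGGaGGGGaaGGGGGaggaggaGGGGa
Ntrk2, chr13:58942695-58942774: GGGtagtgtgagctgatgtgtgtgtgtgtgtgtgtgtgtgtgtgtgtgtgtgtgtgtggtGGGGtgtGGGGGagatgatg
Egfr, chr11:16802259-16802338: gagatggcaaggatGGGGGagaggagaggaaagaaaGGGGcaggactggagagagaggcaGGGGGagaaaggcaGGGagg
Such stretches were picked as the best of each peak and do not describe the peak as a whole. They do not stand for the other peaks either, whose best stretches varied. Peak 2 of Igf1r held 27 G and 11 C, and peak 2 of Egfr 45 G and 2 C.

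Taken over whole peaks, the excess of G was small. Of the 41 peaks, 30 (73.2%) had more G than C on the coding strand. This compares with 66.1% of the 14917 peaks that overlap exactly 1 protein-coding gene. The median GC skew went the other way, 0.0348 against 0.039. Median GC content was 48.4% against 49.2%, and median width 1.507 kb against 1.548 kb. Peaks of 1 kb or more made up 75.6% against 64.7%. Peaks touching an exon of any transcript numbered 16 of 41 (39.0%) against 53.6%. GC content was higher inside than outside the peaks in 6 of the 7 genes with peaks, by the most in Fgfr2 (56.8% against 46.3%) and Egfr (46.7% against 41.6%). GC skew was higher inside the peaks in 4 of the 7 genes and lower in Fgfr1, Fgfr2 and Igf1r. With each gene cut into 4 equal parts from start to end, 12, 13, 6 and 9 peak midpoints fell in the successive parts and 1 beyond the gene end. For all peaks in 1 protein-coding gene of at least 15 kb the shares were 27.8%, 19.4%, 19.7% and 28.0%.

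Restriction sites limit the fragments that DRIP recovers, and the DNA had been cut with EcoRI, HindIII, BsrGI, SspI and XbaI. At least 1 edge lay within 100 bp of such a site in 23 of the 41 peaks (56.1%), against 46.7% of all peaks. The fragment holding the reference start was 0.52 kb long at Pdgfra, the shortest of the 10, and 1.577 to 4.932 kb at the others, with 4.932 kb at Fgfr3. The part of fragment length in the absence of start peaks was not tested.

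Met, the receptor for hepatocyte growth factor, had no peak within 2 kb but one of 0.611 kb (chr6:17526281-17526891) 2.3 kb beyond its end, so it counts as a gene with a peak once the margin is 3 kb or wider. Pdgfra (chr5:75548316-75594229) had no peak within 100 kb. Its nearest was 107.1 kb upstream, and 5 lay within 250 kb. Pdgfrb, on chromosome 18, had 1 peak of 0.496 kb in intron 2, with a GC skew of 0.415 and 46 G to 0 C in its best 80 bases. Related receptors lie near the PDGF receptors. Kit, the stem cell factor receptor, lies 376.7 kb from Pdgfra and had no peak. Csf1r, the receptor for colony-stimulating factor 1 that is typical of microglia, lies 20.51 kb from Pdgfrb and had 2 peaks.

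Among the genes listed, peaks were found at most of those downstream of the receptors and at few of those upstream. Of 25 genes listed as growth factor ligands, 5 had a peak within 2 kb: Fgf1, Fgf2, Fgf18, Nrg2 and Pdgfa. Among these, Fgf1, Nrg2 and Pdgfa had the most, 2 each. The list includes Fgf13, which had no peak and whose product is not a secreted ligand of these receptors. Pdgfa, which encodes a ligand of PDGFRA, was covered to 27.35%. Of 12 receptor paralogs, 6 had a peak (50.0%), the most in Erbb4 and Ntrk3 with 3 each, and 1 had a coding start in a peak. With peaks of at least 1 kb alone, 2 of the paralogs kept a peak. Of 27 genes that relay the signal, 25 had a peak (92.6%) and 15 a coding start in a peak (55.6%). The most, 7 peaks over 46.12% of the gene, lay in Plcg1, whose product is the phospholipase that these receptors bind and activate. Of 17 feedback inhibitors, 15 had a peak (88.2%) and 12 a coding start in a peak (70.6%), with 12 peaks each in Spred2, an inhibitor of Raf activation, and in Lrig1, a negative regulator of ErbB receptors. The 3 listed Sprouty genes, Spry1, Spry2 and Spry4, are FGF-induced inhibitors named here after their values were seen. At 4.652, 4.871 and 15 kb they are short. They were covered to between 88.26 and 93.79%, and each had its start in a peak. Against the 43.1% of all protein-coding genes, the ligands stood below and the relay genes and inhibitors above, while the receptors lay between them. Median gene length was 65.33 kb for ligands, 24.35 kb for paralogs, 58.57 kb for relay genes and 47.33 kb for inhibitors, and its part in these shares was not tested. The differences between lists were not tested. The lists were also chosen with earlier results of these data known, so the contrast describes the listed genes only.

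**Figure D4:**
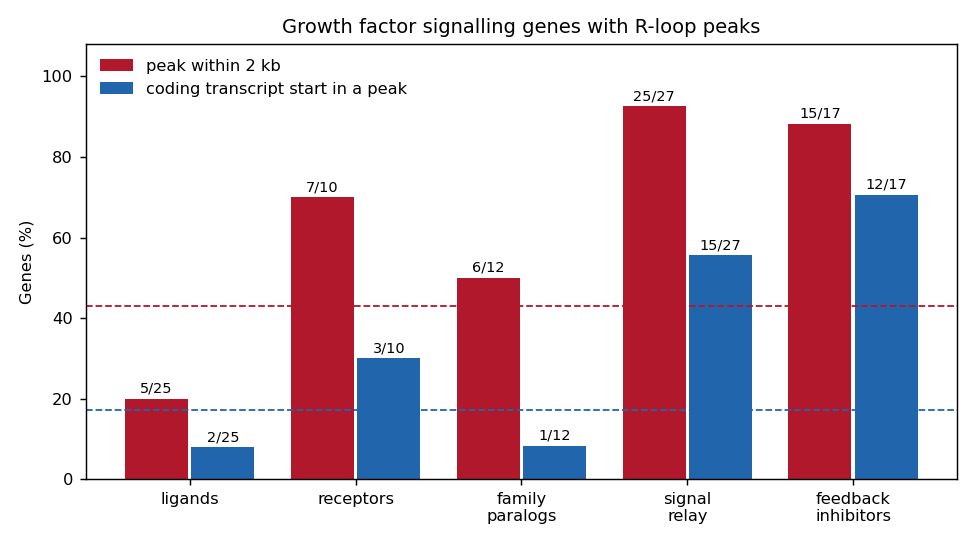
Percent of genes in each list with a peak within 2 kb (red bars) and with a coding transcript start inside a peak (blue bars), with the number of genes above each bar. Dashed lines give the shares of all protein-coding genes, 43.1% (red) and 17.2% (blue), and the ligands fall below both lines while relay genes and feedback inhibitors lie far above both. The lists were chosen with earlier results of these data known.

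The cells' label was set against marker genes. A peak lay within 2 kb of 8 of 10 markers of neural stem and progenitor cells and 4 of 6 of the oligodendrocyte lineage, against 0 of 5 of neurons, 1 of 5 of microglia and 2 of 6 of endothelial and mural cells. The share of all protein-coding genes was 43.1%, and lists of 5 or 6 genes are too short for any of their counts to be set apart from it. Most markers of the labelled cell type carried a peak. None of the 5 neuronal markers did, but that list is too short for a contrast, and a peak is not a measure of expression. Hes5, counted among the 8, had a peak within 2 kb but none overlapping it. Median gene length was 7.219 kb for the stem and progenitor markers and 77.47 kb for the neuronal ones, and its part was not tested. Pdgfra, a marker of oligodendrocyte progenitors, and Pdgfrb, a marker of mural cells, had 0 and 1 peaks.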

How the data were processed

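DRIP-seq peaks of NSPCs were analysed as deposited. The authors trimmed reads with Trim Galore 0.6.6, aligned them to NCBI37/mm9 (aligner not given in the sources used here), discarded duplicates, and a Hidden Markov Model then gave the peaks. How replicates were combined is not named. The deposited list holds 3 columns, chromosome, start and end, with no count, signal or score, and 0 further value columns.

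Positions were converted to 1-based coordinates and compared with GENCODE M1 and the mm9 sequence. Overlaps counted from 1 bp, and peaks within 2 kb of a gene were assigned to it. A second record named Fgfr1 lies inside the main one and adds no peak. Hras is annotated as Hras1. Pathway lists name their gene with the most peaks, neighbouring paralogs within 1 Mb and genes that share a member's peak; other names were added after seeing values. Members and lists were chosen with earlier results of these data known.

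Alternatives were other flanks, peaks of at least 1 kb, merged peaks, other overlap rules and other gene limits. Leaving out Fgfr2-007 and a flank of 3 kb were chosen after seeing the data. Overlap counting was tested on simulated data, in which all 72 genes with a planted peak were recovered among 235. Calculations used Python 3.11.15, pysam 0.24.0 and numpy 2.4.6, and figures matplotlib 3.10.9.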

Additional observations from a re-analysis of the deposited data

How the results depend on the processing

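Of 52 alternative values, 44 stayed within 1.5 times the value by the annotated gene limits. By those limits 84 distinct peaks lay at the receptors. Without Fgfr2-007 the count was 41. With peaks that overlap no other gene it was 40 by the annotated limits and 37 without Fgfr2-007. Gene starts in a peak went from 2 to 1 without Fgfr2-007, and gene ends from 1 to 2 when the end of any coding transcript or a margin of 1 kb was allowed. Paralogs with a peak went from 6 to 2 with peaks of at least 1 kb. Peaks with an edge near a restriction site went from 38 to 23 without Fgfr2-007. With that transcript kept and a distance of 20 bp they went to 10. Receptors with a peak numbered 6 to 8 throughout: Met joined from a margin of 3 kb, and Pdgfrb was lost with peaks of at least 1 kb.

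No paired analysis was possible because 1 peak list was analysed. The list gives no depth, so weak R-loops and missing ones cannot be told apart, and narrow peaks such as that of Pdgfrb rest on position alone.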
